A study of Mus musculus with 21 samples.

Results

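The livers of mice given an antimiR against microRNA-122 were compared with those of saline mice on day 9, which was 7 days after a single dose. The comparison takes 6 of the 21 arrays of the series, picked by the group names in the labels, and all 18193 genes that the arrays measured with a probe set of their own. The antimiR-122 group holds 3 mice, numbered 10, 8 and 9 in the labels, which were dosed on day 2 with 25 mg per kg of SPC3372. The saline group holds 3 mice, numbered 1, 2 and 3, which had vehicle alone. All mice were females of NMRI, an outbred stock, so mice of a group may differ in genotype, and their age is not given in the sources used here. Livers of days 3 and 23, with 3 antimiR-122 and 3 saline mice each, serve below to set the day 9 differences beside those 1 and 21 days after the dose. The day 23 arrays come from another array set (p0621) than those of days 3 and 9 (p0617), so comparing days 9 and 23 crosses sets. The p0617 arrays of the same 3 treated day 23 mice were used only in an alternative. The labels number saline mice 1, 2 and 3 and an antimiR-122 mouse 8 at both days 3 and 9. As each liver was taken when its mouse was killed, they were treated as separate mice.

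MicroRNA-122 is a small RNA made in large amounts by hepatocytes. It guides Argonaute proteins to messenger RNAs that carry a match to its seed, which lowers their translation and stability. SPC3372 is a short oligonucleotide with locked nucleic acid (LNA) bases that pairs with microRNA-122 and blocks it, so messages that the microRNA holds down would be predicted to rise. In liver, microRNA-122 is known for its bearing on cholesterol and fatty acid metabolism and on hepatitis C virus.

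Each value below is a log2 expression level of a probe set, so a difference of 1 stands for a doubling, and levels of different genes are not on a common scale. The 6 arrays correlated at 0.9925 to 0.9949 within a group and at 0.9895 to 0.9927 between the groups. The hepatocyte genes Alb (albumin), Apoa1 and Ttr (carriers in plasma) stood near the top of the scale in every mouse, with Alb at 14.80, 14.82 and 14.82 in antimiR-122 mice and 14.84, 14.84 and 14.77 in saline mice. One technical measure moved with the treatment. Control probe sets read beta-actin at both ends of its message, and the log2 level at the 3' end less that at the 5' end, a sign of RNA or labelling quality, was 1.13, 1.12 and 1.16 in antimiR-122 mice, against 0.94, 0.86 and 0.98 in saline mice, and the groups did not overlap. At day 3 the ratio was 1.01, 1.05 and 1.01 in antimiR-122 mice, against 0.81, 0.85 and 0.76 in saline mice, again without overlap. At day 23 the groups overlapped. The same ratio for Gapdh at day 9 was -0.02, -0.07 and -0.10 in antimiR-122 mice, against 0.24, -0.03 and 0.24 in saline mice, with overlap. With the beta-actin ratio as a covariate, 35 genes passed the test at day 9, of which 26 were among those reported below. As the ratio did not overlap between the groups at days 3 and 9, its part and that of the treatment cannot be told apart by this fit. RNA of whole liver was measured, so a fall through fewer cells of a type and a fall through less RNA per cell cannot be told apart.

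At day 9, 511 of 18193 genes (2.81%) passed the limma test at an adjusted p below 0.05. Of these, 348 (1.91%) were higher and 163 (0.896%) were lower in antimiR-122 mice, and 508 had groups that did not overlap. Over all genes, called or not, 10.4% had antimiR-122 mice wholly above saline mice and 11.2% wholly below. A lack of overlap between groups of 3 was thus common without a call. The median log2 difference was 0.55 among the genes past the test that rose and -0.46 among those that fell. A change of 2-fold or more was seen in 35 genes that rose and 15 that fell. The split between the directions depended on scaling: quantile normalization of the deposited values once more gave 274 higher and 215 lower, and centring each array on its median gave 387 higher and 123 lower. Leaving out 1 mouse lowered the count in each case. Without mouse 9 of the antimiR-122 group 176 genes passed, without mouse 10 it was 216, and without saline mouse 1 or 3 it was 253 or 247. Without antimiR-122 mouse 8 or saline mouse 2, 390 and 342 genes passed.

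**Figure D1:**
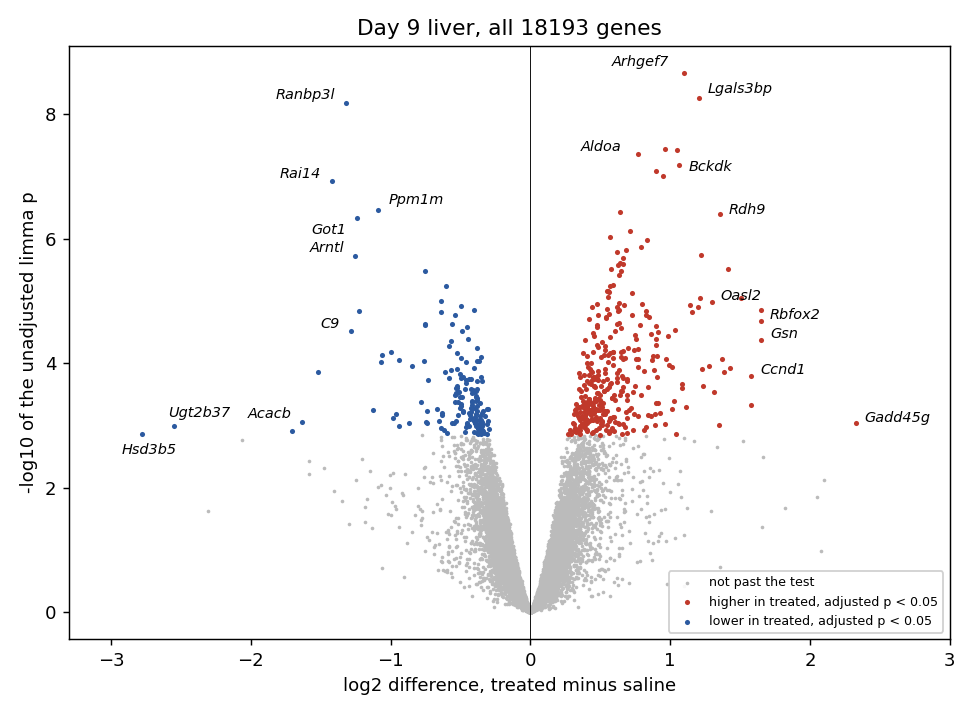
Difference between antimiR-122 and saline livers at day 9 (x axis, log2, mean of 3 mice minus mean of 3 mice) against the negative log10 of the unadjusted limma p (y axis) for 18193 genes, 1 point per gene. Red points are the 348 genes that rose and blue points the 163 that fell, with Hsd3b5 at -2.78 and Gadd45g at 2.33 as the outermost genes called.

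Of the 76 genes past the test that the naming rule took up, 9 passed under every alternative setting in which they were tested. They were Aldoa, Bckdk, Slc35a4, Lgals3bp, Rbfox2 and Retreg3, which rose, and Rai14, Ranbp3l and Ppm1m, which fell. Ranbp3l, a Ran-binding protein, had levels of 5.21, 5.29 and 5.21 in antimiR-122 mice, against 6.53, 6.39 and 6.76 in saline mice. The antimiR-122 mice lay close together and all below the saline mice, a 2.5-fold fall (-1.32 ± 0.12, SE, adjusted p = 3.92e-05). Ppm1m, a protein phosphatase of the PP2C family, had 6.81, 6.82 and 6.73 in antimiR-122 mice, against 7.99, 7.92 and 7.71 in saline mice, a difference of -1.09 ± 0.13 (adjusted p = 0.000554). Rai14, which binds actin filaments, had 6.89, 6.08 and 6.56 in antimiR-122 mice, against 8.11, 7.86 and 7.81 in saline mice. Its fall of 2.67-fold had an adjusted p of 0.000217, while a second probe set also fell, by 0.92 on the log2 scale, and another was at 0.27 without passing.

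Retreg3, a receptor that sends endoplasmic reticulum to autophagy, had 7.51, 7.31 and 7.81 in antimiR-122 mice, against 5.70, 6.59 and 5.83 in saline mice, a 2.84-fold rise with an adjusted p of 0.00399. Another probe set of Retreg3 differed by 0.33 and did not pass. Rbfox2, a regulator of splicing, had 8.0, 8.20 and 7.59 in antimiR-122 mice, against 6.24, 6.69 and 5.92 in saline mice, a difference of 1.65 ± 0.28 (adjusted p = 0.00525), and all antimiR-122 mice exceeded all saline mice. The 4 genes that follow were chosen after their values were seen, for their small p-values. Arhgef7, an exchange factor for the small GTPases Rac and Cdc42, had 8.34, 8.29 and 8.32 in antimiR-122 mice, against 7.20, 7.22 and 7.23 in saline mice, with narrow groups and a 2.14-fold rise (adjusted p = 3.92e-05). Ang, the secreted ribonuclease angiogenin, had 12.44, 12.42 and 12.53 in antimiR-122 mice, against 11.51, 11.41 and 11.57 in saline mice, and its 2 other probe sets rose as well, by 0.82 and 0.89. Fam149a had 8.28, 8.59 and 8.51 in antimiR-122 mice, against 7.43, 7.37 and 7.44 in saline mice, a difference of 1.05 ± 0.11 (adjusted p = 0.000133). Rarres1, a retinoic acid responsive gene, had 11.12, 11.01 and 11.25 in antimiR-122 mice, against 10.35, 10.24 and 10.08 in saline mice, a difference of 0.90 ± 0.10 (adjusted p = 0.000185). All 4 also passed with the beta-actin ratio as covariate.

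**Figure D2:**
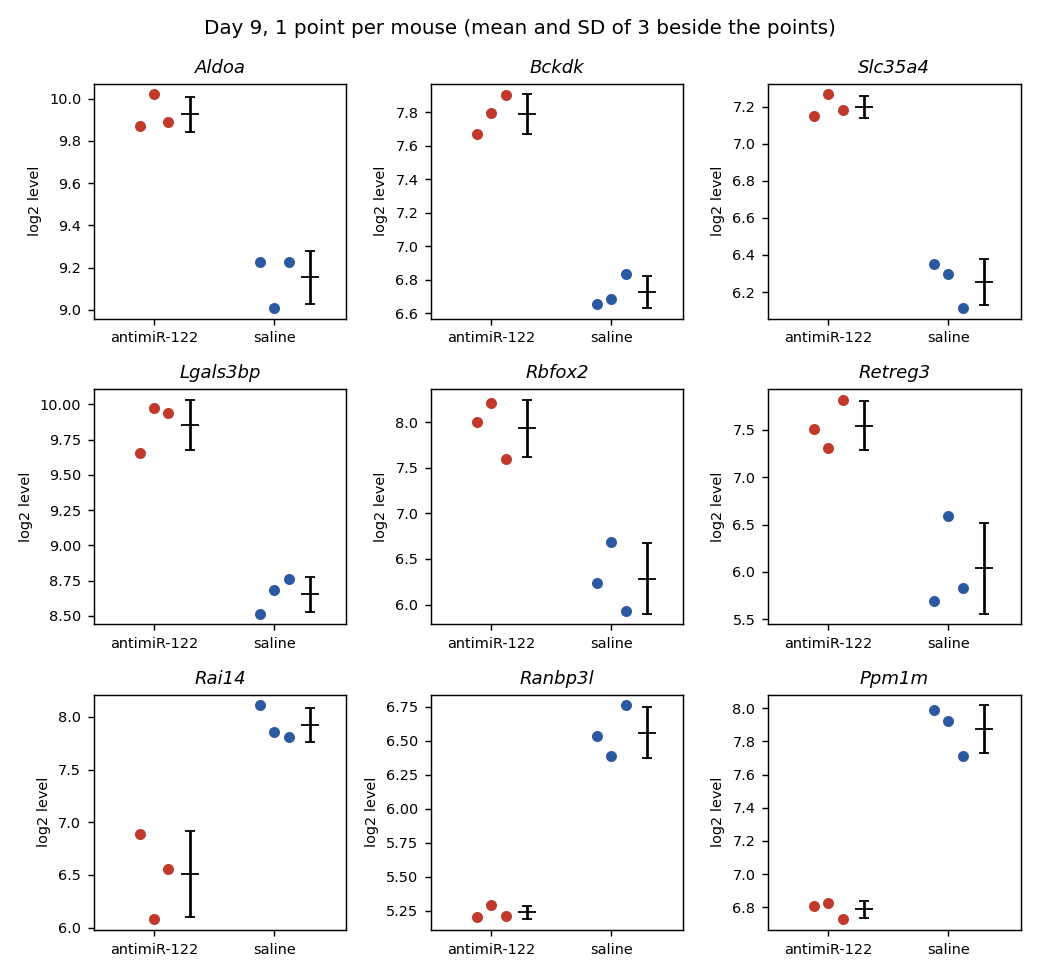
Log2 level in each mouse at day 9 for the 9 genes that passed under every setting in which they were tested. The antimiR-122 mice stand left of saline mice, bars beside the points are the mean and SD of 3 mice, and in each of the 9 panels the groups do not overlap.

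The first list holds messages known as microRNA-122 targets, mostly from studies in mouse and human liver. This list and those below were chosen with earlier results of these data known. Their counts beside the shares of all genes are therefore no independent test. Of its 30 measured members 10 rose (against 1.91% of all genes) and 0 fell, and 20 did not pass. The median difference was 0.27, against -0.02 over all genes. Aldoa, the glycolytic aldolase, had 9.87, 10.02 and 9.89 in antimiR-122 mice, against 9.23, 9.01 and 9.23 in saline mice. All antimiR-122 mice were above all saline mice, by 1.71-fold (0.77 ± 0.08, adjusted p = 0.000133), and 3 of its 4 other probe sets passed too. Bckdk, the kinase that switches off breakdown of branched-chain ketoacids, had 7.67, 7.80 and 7.90 in antimiR-122 mice, against 6.66, 6.68 and 6.83 in saline mice, a 2.09-fold rise (adjusted p = 0.000171). A dimmer probe set of Bckdk differed by 0.15 without passing. Slc35a4, of the nucleotide sugar transporter family, had 7.15, 7.27 and 7.18 in antimiR-122 mice, against 6.35, 6.30 and 6.11 in saline mice, a difference of 0.95 ± 0.11 (adjusted p = 0.000196). With the beta-actin ratio as covariate 3 of the list rose in place of 10, namely these genes.

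Cers6, a ceramide synthase, had 8.54, 8.72 and 8.46 in antimiR-122 mice, against 7.93, 7.39 and 7.68 in saline mice, a 1.88-fold rise (adjusted p = 0.00652). Ndrg3, of the NDRG family, had 7.27, 7.76 and 7.55 in antimiR-122 mice, against 6.79, 6.84 and 6.66 in saline mice (adjusted p = 0.0114). Hjv, the coreceptor through which bone morphogenetic proteins raise hepcidin, had 9.84, 9.81 and 9.99 in antimiR-122 mice, against 9.13, 9.19 and 9.34 in saline mice, a difference of 0.66 ± 0.13 (adjusted p = 0.0114). Ccng1, cyclin G1, had 8.81, 8.78 and 8.73 in antimiR-122 mice, against 8.31, 8.15 and 8.28 in saline mice, a difference of 0.52 ± 0.10 (adjusted p = 0.0109). Other probe sets of Ccng1 differed by 0.43, which passed, and by 0.19, which did not. Groups of these 4 genes did not overlap. With the beta-actin covariate their adjusted p-values were 0.311 for Cers6, 0.116 for Ndrg3, 0.259 for Hjv and 0.398 for Ccng1. Their differences with it were 0.55, 0.85, 0.56 and 0.29, in the same order. Tmed3, a cargo receptor of the early secretory pathway, had 8.81, 9.13 and 9.02 in antimiR-122 mice, against 8.43, 8.03 and 8.45 in saline mice (adjusted p = 0.0317). Members outside the naming rule completed the 10, Mapre1, which tracks microtubule ends, at 0.54, and the GTPase Rhoa at 0.48. Leaving out 1 mouse gave 9 or 10 members that rose, not always the same ones. Without antimiR-122 mouse 9, Hjv lost its call (adjusted p = 0.0577) while Agpat1 gained one (adjusted p = 0.0375), and Tmed3 failed in 5 of the 6 such fits, with an adjusted p of up to 0.118 without saline mouse 2.

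Several well known targets did not pass. Agpat1, which makes phosphatidic acid, had 6.67, 6.99 and 6.36 in antimiR-122 mice, against 6.13, 6.09 and 6.10 in saline mice, with groups apart but an adjusted p of 0.064. Cd320, the transcobalamin receptor, had 7.25, 7.37 and 7.08 in antimiR-122 mice, against 7.07, 6.92 and 7.31 in saline mice, overlapping groups and a difference of 0.13 ± 0.10. Slc7a1, the cationic amino acid transporter that was an early target in human hepatoma cells, was dim, with 5.11, 5.11 and 5.09 in antimiR-122 mice, against 5.06, 4.95 and 5.02 in saline mice (0.09 ± 0.10). Gys1, the muscle type glycogen synthase, had 6.07, 6.17 and 6.13 in antimiR-122 mice, against 5.88, 6.19 and 6.34 in saline mice (-0.01 ± 0.09), and P4ha1, a collagen prolyl hydroxylase, had 5.64, 5.94 and 5.92 in antimiR-122 mice, against 5.69, 5.49 and 5.72 in saline mice (0.20 ± 0.15). The intervals implied by these SEs leave room for small rises.

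Genes induced by interferon formed the list with the highest median difference, 0.51. All 31 measured members were higher in antimiR-122 mice, where 8207 of all 18193 genes were. Of the 31, 12 rose (against 1.91% of all genes), 0 fell and 19 did not pass. Interferons signal through Stat proteins and Irf9, which bind a promoter motif called the interferon-stimulated response element (ISRE). Its core was searched as GAAANNGAAA, where N is any base, on both strands from 250 bases before to 50 after each gene start in RefSeq promoters (GRCm38.p6). It was found in 3.44% of 32851 promoters, in 12 of the 21 list genes that had one (57.1%), and in 4 of the 9 with a promoter among those that rose. The windows below show those 4 on the gene strand, with the match in capitals. A match is a description of letters and not a tested site.
Ifit1: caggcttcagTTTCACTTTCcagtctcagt
Ifit3: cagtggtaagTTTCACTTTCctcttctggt
Oas1a: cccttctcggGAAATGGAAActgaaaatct
Ddx58: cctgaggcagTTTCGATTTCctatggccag
The windows lie at chr19:34640775-34640804 (plus strand) for Ifit1, chr19:34583363-34583392 (plus strand) for Ifit3, chr5:120907526-120907555 (minus strand) for Oas1a and chr4:40239804-40239833 (minus strand) for Ddx58. Their matches start at -104, -156, -20 and 2 relative to the gene start. Ifit1, Ifit3 and Oas1a had another match each, which in Oas1a overlaps the one shown.

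Among antiviral effectors, Ifit1, which binds foreign RNA ends, had 7.78, 8.06 and 8.19 in antimiR-122 mice, against 6.67, 5.93 and 6.69 in saline mice, a 2.99-fold rise (adjusted p = 0.0288). Its relatives Ifit3 and Ifit2 rose by 0.89 and 1.08. Oasl2, of the oligoadenylate synthetase family, had 6.04, 5.77 and 6.55 in antimiR-122 mice, against 4.77, 4.62 and 5.09 in saline mice, a difference of 1.30 ± 0.21 (adjusted p = 0.00438). Oas1a, which makes the oligoadenylates that activate RNase L, rose by 0.87 ± 0.17. Ifi27l2a had 8.01, 7.76 and 8.27 in antimiR-122 mice, against 6.57, 6.20 and 7.04 in saline mice, a 2.66-fold rise (adjusted p = 0.00197), and in each of these genes all antimiR-122 mice exceeded all saline mice. Lgals3bp, a secreted galectin-3 binding protein, had 9.65, 9.97 and 9.94 in antimiR-122 mice, against 8.52, 8.68 and 8.76 in saline mice and the smallest adjusted p of the list, 3.92e-05.

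Of the regulators, Irf7, a transcription factor that amplifies interferon production, had 7.57, 7.39 and 7.88 in antimiR-122 mice, against 6.73, 6.75 and 6.77 in saline mice, a difference of 0.87 ± 0.21 (adjusted p = 0.0342). Irf9 and the viral RNA sensor Ddx58 (RIG-I) rose by 0.51 and 0.39, and Rtp4 by 0.69. Usp18, the protease that removes Isg15 and dampens the pathway, had 7.96, 8.06 and 8.81 in antimiR-122 mice, against 6.90, 6.59 and 7.20 in saline mice (adjusted p = 0.0148). Zbp1, a nucleic acid sensor, did not pass with 7.46, 7.59 and 7.22 in antimiR-122 mice, against 6.84, 5.90 and 6.02 in saline mice (adjusted p = 0.0574), although its groups did not overlap. Mouse 9 had the highest of the 6 values in 20 of the 31 genes. Leaving out 1 mouse gave 3 to 9 genes that rose, with 3 and a median of 0.37 without mouse 9, and Oasl2, Ifi27l2a and Lgals3bp passed in all 6 such fits. Adjusted p reached 0.104 for Ifit1, 0.148 for Irf7 and 0.0798 for Usp18 without that mouse. With the beta-actin ratio as covariate 1 list gene rose, Lgals3bp, and the median was 0.40.

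**Figure D3:**
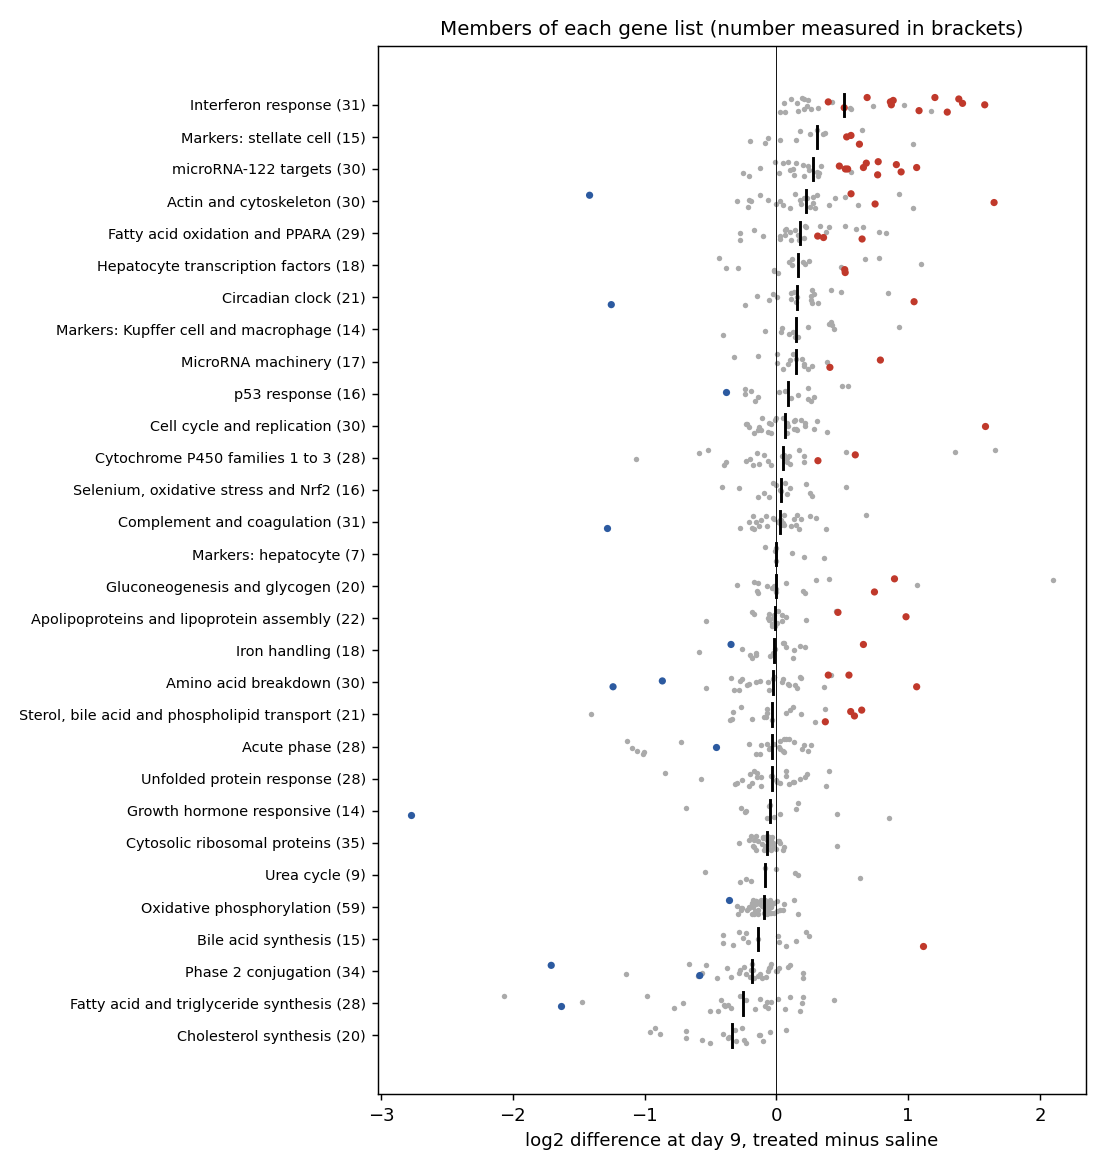
Log2 difference at day 9 (antimiR-122 minus saline) of each measured member of 27 functional gene lists and 3 lists of cell type markers, 1 point per gene, with lists ordered by their median (black bar). Red and blue points passed the limma test over all genes. Interferon response stands at the top with a median of 0.51 and cholesterol synthesis at the bottom with -0.34.

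The 15 largest increases, taken only among genes past the test whose groups did not overlap, also held genes of growth, stress and metabolism. Gadd45g, a stress-induced regulator of growth arrest, had 8.07, 7.71 and 9.06 in antimiR-122 mice, against 6.09, 6.45 and 5.31 in saline mice, the largest rise called at 5.02-fold (2.33 ± 0.58, adjusted p = 0.039). Ccnd1, cyclin D1 of the G1 phase, had 9.82, 9.39 and 10.56 in antimiR-122 mice, against 8.88, 7.58 and 8.56 in saline mice, a difference of 1.58 ± 0.33 (adjusted p = 0.0163), and its 2 other probe sets rose by 1.63 and 1.93. Mouse 9 was the highest in both genes. Gsn, the actin-severing protein gelsolin, had 8.91, 9.21 and 9.12 in antimiR-122 mice, against 7.53, 7.27 and 7.49 in saline mice, a 3.14-fold rise (adjusted p = 0.00777). Pcp4l1, a small protein related to the calmodulin regulator Pcp4, had 7.83, 8.27 and 8.63 in antimiR-122 mice, against 6.33, 6.55 and 6.91 in saline mice (adjusted p = 0.0045). Rdh9, of the retinol dehydrogenases, had 11.81, 11.97 and 11.98 in antimiR-122 mice, against 10.63, 10.75 and 10.32 in saline mice, a difference of 1.36 ± 0.17 (adjusted p = 0.000554).

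Tsc22d1, a leucine zipper regulator, had 11.18, 11.32 and 12.22 in antimiR-122 mice, against 10.11, 10.50 and 9.83 in saline mice (adjusted p = 0.0139), again with mouse 9 on top. Slc25a25, a mitochondrial carrier of ATP, magnesium and phosphate, had 9.47, 9.41 and 9.63 in antimiR-122 mice, against 8.83, 7.63 and 7.95 in saline mice (adjusted p = 0.0114). Crim1, a membrane protein that binds bone morphogenetic proteins, had 6.54, 6.89 and 7.01 in antimiR-122 mice, against 5.12, 6.29 and 4.97 in saline mice, and Bmf, a cell death activator of the Bcl2 family, had 7.37, 6.96 and 6.26 in antimiR-122 mice, against 5.46, 5.74 and 5.45 in saline mice. Crim1 differed by 1.35 ± 0.34 and Bmf by 1.31 ± 0.29, but a second probe set of Bmf differed by -0.09. Meg3, an imprinted long noncoding RNA, had 7.94, 8.84 and 9.02 in antimiR-122 mice, against 7.34, 7.06 and 7.68 in saline mice, a 2.36-fold rise (adjusted p = 0.0194). Its other probe sets above the median level did not agree in size and differed by -0.01 to 1.31. Gsn, Pcp4l1 and Rdh9 passed with any 1 mouse left out but not with the beta-actin covariate, where Gsn differed by 0.91 (adjusted p = 0.359), Pcp4l1 by 1.07 (0.242) and Rdh9 by 1.11 (0.0684). Without mouse 9 the adjusted p was 0.167 for Gadd45g, 0.0856 for Ccnd1, 0.07 for Tsc22d1, 0.0548 for Slc25a25 and 0.0985 for Meg3. It reached 0.16 for Crim1 without saline mouse 3 and 0.0971 for Bmf without mouse 10.

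The largest decrease called was that of Hsd3b5, a steroid dehydrogenase isoform that in mice is far more abundant in male liver. Its levels were 6.24, 6.42 and 5.04 in antimiR-122 mice, against 10.49, 7.19 and 8.35 in saline mice. Saline mouse 1 stood well above the other two saline mice, and the 6.85-fold fall (-2.78 ± 0.73) had an adjusted p of 0.0495. Ugt2b37, a glucuronosyltransferase, had 5.43, 5.57 and 5.24 in antimiR-122 mice, against 8.66, 6.77 and 8.46 in saline mice, a difference of -2.55 ± 0.64 (adjusted p = 0.0408). Nnmt, which methylates nicotinamide, had 6.59, 8.06 and 7.73 in antimiR-122 mice, against 8.43, 9.71 and 9.36 in saline mice, with a spread of more than 1 in both groups and a difference of -1.71 ± 0.44 (adjusted p = 0.0451). C9, the pore-forming last component of complement, had 10.83, 10.53 and 11.16 in antimiR-122 mice, against 12.28, 11.92 and 12.18 in saline mice, a 2.44-fold fall (adjusted p = 0.00644). Acpp, an acid phosphatase, had 3.69, 3.85 and 4.49 in antimiR-122 mice, against 5.23, 5.24 and 6.12 in saline mice (adjusted p = 0.0148). Its mean over the 18 arrays, 4.39, was below the median level of 4.79. Dimmer probe sets of Acpp differed by -0.07 and -0.15 without passing.

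Got1, the cytosolic aspartate aminotransferase, had 10.31, 10.07 and 9.85 in antimiR-122 mice, against 11.43, 11.29 and 11.21 in saline mice, and its fall of 2.36-fold had an adjusted p of 0.000603. Pdk1, a kinase that switches off pyruvate dehydrogenase, had 9.01, 8.52 and 8.53 in antimiR-122 mice, against 9.95, 9.99 and 9.81 in saline mice, a difference of -1.23 ± 0.20 (adjusted p = 0.0045). A second probe set fell by 1.14 and another differed by 0.13 without passing. Fbxo32, a ubiquitin ligase subunit, had 4.80, 5.09 and 4.79 in antimiR-122 mice, against 5.86, 5.95 and 6.23 in saline mice (adjusted p = 0.0308), Abtb2 had 7.52, 7.78 and 7.15 in antimiR-122 mice, against 8.73, 8.44 and 8.49 in saline mice (adjusted p = 0.0122), and Slc13a2, a carrier of dicarboxylates, had 4.72, 4.51 and 4.80 in antimiR-122 mice, against 5.65, 5.97 and 5.59 in saline mice (adjusted p = 0.0111). Dimmer probe sets of Fbxo32 differed by 0.04 and 0.06 and one of Abtb2 by -0.39, without passing. With the mean of probe sets, neither Fbxo32 nor Abtb2 passed. C9, Got1, Pdk1 and Slc13a2 passed with any 1 mouse left out. With the beta-actin covariate none of these 4 passed (adjusted p = 0.185, 0.0684, 0.077 and 0.125, in that order). Their differences with it were -1.13, -1.08, -1.35 and -1.15. Pdk1 also failed with the mean of probe sets and Slc13a2 with the replicate block. The adjusted p rose to 0.19 for Hsd3b5 and 0.0695 for Abtb2 without mouse 9, to 0.146 for Ugt2b37 without saline mouse 1, to 0.187 for Nnmt without mouse 10, and to 0.112 and 0.0746 for Fbxo32 and Acpp without saline mouse 3.

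Few lipid genes passed the test. With the beta-actin ratio as covariate, 1 gene each of the apolipoprotein, amino acid and transcription factor lists described below rose and 1 of the actin list fell, and no other gene of those lists passed. The transcription factor that rose with it was neither Nr1i3 nor Rxra (adjusted p with the covariate = 0.16 and 0.304), which rose without it. Without the covariate, a single synthesis gene fell, while the genes that rose belonged to oxidation, lipoproteins, transport and bile acid control. Cholesterol synthesis, the sterol pathway controlled by Srebf2, had 0 of 20 members past the test and a median difference of -0.34. Sqle, squalene epoxidase, had 9.90, 10.10 and 7.17 in antimiR-122 mice, against 9.40, 9.64 and 9.82 in saline mice. Hmgcs1, the cytosolic synthase that feeds the pathway, had 13.45, 13.40 and 11.67 in antimiR-122 mice, against 12.89, 13.13 and 13.23 in saline mice, and Fdps, which makes farnesyl diphosphate, had 11.60, 11.91 and 9.19 in antimiR-122 mice, against 11.55, 12.03 and 11.79 in saline mice. In these 3 genes mouse 9 lay far below all other mice, while mice 10 and 8 were above every saline mouse in Sqle and Hmgcs1 and among them in Fdps. Mouse 9 was the lowest of the 6 in 19 of the 20 genes. The mean level over the list was 10.29, 10.42 and 8.79 in antimiR-122 mice, against 10.14, 10.30 and 10.26 in saline mice. Without mouse 9 the list median was 0.11. Dhcr7, the last enzyme of the pathway, had 9.24, 9.35 and 7.29 in antimiR-122 mice, against 9.44, 9.82 and 9.52 in saline mice. Pmvk, phosphomevalonate kinase, had 8.85, 9.20 and 7.54 in antimiR-122 mice, against 9.38, 9.71 and 9.26 in saline mice. Groups of these genes did not overlap, but adjusted p-values were 0.204 and 0.153.

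Fatty acid and triglyceride synthesis had 1 of 28 members that fell (against 0.896% of all genes), Acacb, and a median of -0.25. Acacb, the acetyl-CoA carboxylase at mitochondria whose product restrains fatty acid oxidation, had 7.35, 7.73 and 6.33 in antimiR-122 mice, against 8.79, 8.93 and 8.58 in saline mice, a 3.1-fold fall (adjusted p = 0.0383). Scd1, the stearoyl-CoA desaturase, had 10.99, 13.02 and 9.69 in antimiR-122 mice, against 12.87, 13.84 and 13.18 in saline mice, overlapping groups and a difference of -2.07 ± 0.56 (adjusted p = 0.056). Acss2, which makes acetyl-CoA from acetate, had 9.92, 10.64 and 8.84 in antimiR-122 mice, against 11.16, 11.49 and 11.17 in saline mice (adjusted p = 0.094), and Acly, which makes it from citrate, had 10.56, 10.49 and 9.82 in antimiR-122 mice, against 11.18, 11.47 and 11.16 in saline mice (adjusted p = 0.105). Mouse 9 was lowest in all 4 genes and in 15 of the 28, but in Acacb, Acss2 and Acly the other two antimiR-122 mice were also below every saline mouse. Without mouse 9 the list median was -0.22, and the adjusted p was 0.175 for Acacb. Without mouse 8, 3 of the list fell in place of 1, and Scd1 and Acss2 passed (adjusted p = 0.00205 and 0.0475).

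**Figure D4:**
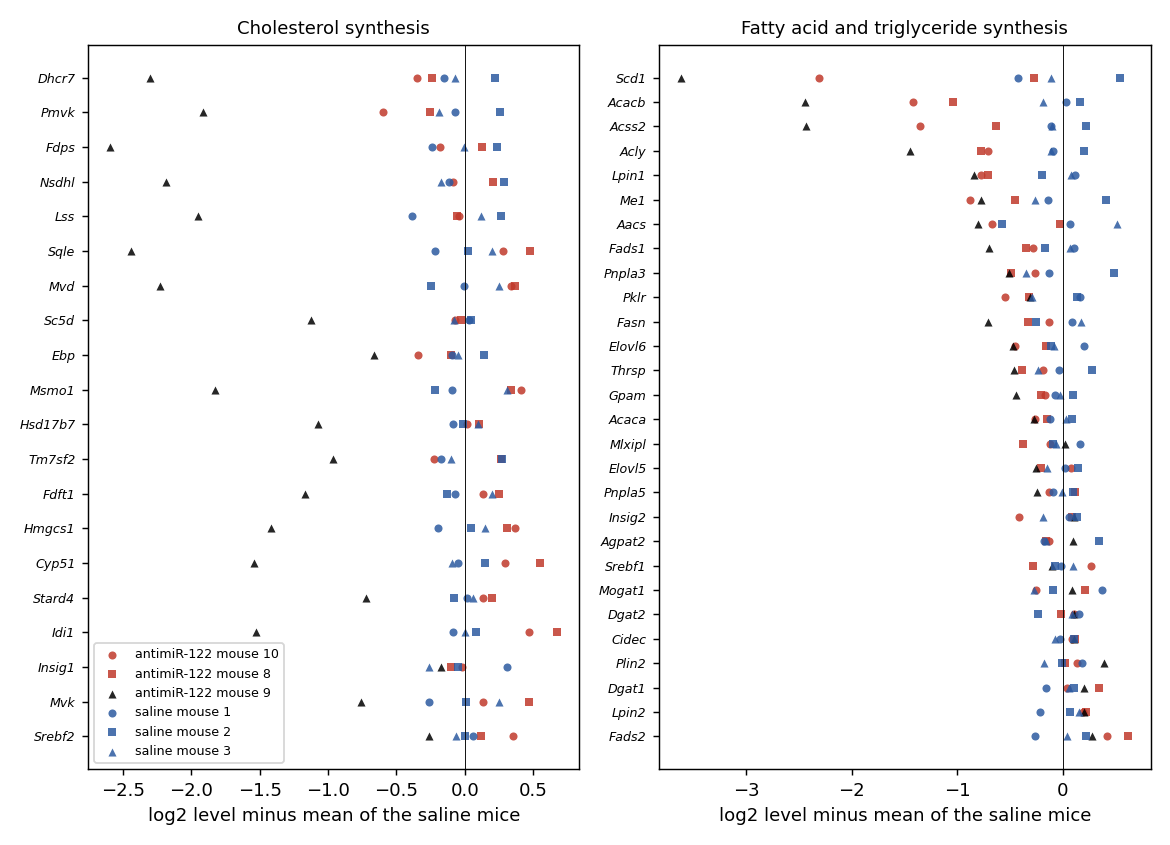
Log2 level of each measured gene of cholesterol synthesis (left) and of fatty acid and triglyceride synthesis (right) in each of the 6 mice of day 9, less the mean of the 3 saline mice. Mouse 9 of the antimiR-122 group (black triangles) was the lowest of 6 in 19 of 20 and in 15 of 28 genes.

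Fatty acid oxidation and other targets of the nuclear receptor Ppara had 3 of 29 members that rose (against 1.91% of all genes) and 0 that fell, with a median of 0.18. These were Acot4, a peroxisomal thioesterase, with 8.52, 8.54 and 8.33 in antimiR-122 mice, against 7.94, 7.77 and 7.72 in saline mice (adjusted p = 0.0113), Eci1 with 10.69, 10.74 and 10.91 in antimiR-122 mice, against 10.40, 10.53 and 10.34 in saline mice, and Hadhb of the trifunctional protein with 12.03, 11.97 and 12.12 in antimiR-122 mice, against 11.77, 11.70 and 11.70 in saline mice. Eci1 and Hadhb, both of mitochondrial beta-oxidation, differed by 0.36 ± 0.09 and 0.31 ± 0.08. Other probe sets of Hadhb differed by 0.09 and 0.11 without passing. Acot3, with 11.16, 11.13 and 10.70 in antimiR-122 mice, against 10.59, 9.86 and 10.05 in saline mice, just missed at an adjusted p of 0.0513. Acot4 passed in all 6 fits that left out a mouse, while Eci1 and Hadhb reached 0.163 and 0.142 without mouse 9.

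Of 22 apolipoprotein and assembly genes 2 rose (against 1.91% of all genes). Apob, the structural protein of very low density lipoprotein, had 13.26, 12.93 and 13.31 in antimiR-122 mice, against 12.11, 12.62 and 11.82 in saline mice, a 1.98-fold rise (adjusted p = 0.00716) that also passed with the beta-actin ratio as covariate (adjusted p = 0.0202). Apob did not pass on day 9 arrays alone (adjusted p = 0.0631) or with the mean of its probe sets. Apoc2, the activator of lipoprotein lipase, had 11.92, 11.91 and 12.23 in antimiR-122 mice, against 11.42, 11.65 and 11.58 in saline mice (adjusted p = 0.045). Of 21 sterol, bile acid and phospholipid transporters 4 rose, against the same share, and 0 fell. They were Abcg5 and Abcg8, the partners of the sterol exporter into bile, Npc1 of the lysosome and Abca1, which loads high density lipoprotein. Abcg5 had 10.42, 10.24 and 10.60 in antimiR-122 mice, against 9.70, 9.74 and 9.87 in saline mice, and Abcg8 had 9.61, 9.27 and 9.70 in antimiR-122 mice, against 8.80, 9.05 and 8.95 in saline mice, with groups apart in both and adjusted p-values of 0.0104 and 0.035. Npc1 and Abca1 differed by 0.56 ± 0.14 and 0.37 ± 0.09. Slco1a1, an organic anion uptake carrier, had 8.39, 8.10 and 8.53 in antimiR-122 mice, against 9.93, 9.68 and 9.63 in saline mice without passing (adjusted p = 0.144). Without mouse 9 none of the 4 transporters passed, at adjusted p-values of 0.0572 to 0.165, and Apoc2 passed in 0 of the 6 fits that left out a mouse, with up to 0.197.

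Of 15 bile acid synthesis genes 1 rose (against 1.91% of all genes), Nr0b2 (SHP), the repressor induced by bile acids. It had 10.17, 9.56 and 9.66 in antimiR-122 mice, against 7.91, 8.98 and 9.16 in saline mice (adjusted p = 0.0295). Saline mouse 1 was its lowest mouse, and without mouse 10 the adjusted p was 0.124. Cyp8b1, the sterol 12-alpha-hydroxylase, had 11.32, 11.28 and 11.17 in antimiR-122 mice, against 11.51, 11.71 and 11.78 in saline mice and did not pass (adjusted p = 0.0895). At an unadjusted p below 0.05, limma gave 2 of the list higher and 6 lower, where 8.62% and 8.16% of all genes passed that mark. The list median was -0.14, and 0.01 without mouse 9.

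Among genes of glucose production and glycogen 2 of 20 rose (against 1.91% of all genes). Pck1, the rate-limiting carboxykinase of gluconeogenesis, had 12.77, 12.52 and 12.51 in antimiR-122 mice, against 11.86, 12.09 and 11.62 in saline mice, a 1.68-fold rise (adjusted p = 0.0101). Ppp1r3c, which targets a phosphatase to glycogen, had 10.37, 10.87 and 11.04 in antimiR-122 mice, against 9.99, 9.68 and 9.92 in saline mice (adjusted p = 0.00907). Igfbp1, a binding protein of insulin-like growth factors that insulin represses in liver, had 10.92, 10.53 and 11.28 in antimiR-122 mice, against 7.48, 10.14 and 8.80 in saline mice, groups that did not overlap and a wide spread, and its difference of 2.10 ± 0.69 did not pass (adjusted p = 0.119). Pck1 reached 0.0514 without mouse 10 and Ppp1r3c 0.0529 without mouse 9.

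Amino acid breakdown had 3 of 30 members that rose (against 1.91% of all genes) and 2 that fell (against 0.896%). Besides Bckdk, Glud1, the glutamate dehydrogenase of mitochondria, differed by 0.55 ± 0.09 with groups apart (adjusted p = 0.0045), and Bckdha, a subunit of the complex that Bckdk phosphorylates, had 10.49, 10.50 and 10.63 in antimiR-122 mice, against 10.05, 10.27 and 10.11 in saline mice (adjusted p = 0.0239). Got1 fell, as given above, and so did Prodh, proline dehydrogenase, with 9.77, 10.15 and 9.61 in antimiR-122 mice, against 10.49, 11.01 and 10.63 in saline mice (adjusted p = 0.0389). In the urea cycle 0 of 9 passed, and Asl, argininosuccinate lyase, had 11.28, 11.46 and 11.18 in antimiR-122 mice, against 11.72, 12.02 and 11.80 in saline mice (adjusted p = 0.0729). Glud1 passed with any mouse left out, and without mouse 9 the adjusted p was 0.105 for Bckdha and 0.156 for Prodh.

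In the circadian clock list 1 of 21 genes rose (against 1.91% of all genes) and 1 fell (against 0.896%). The time of day at killing is not given in the sources used here. Arntl (Bmal1), the activator of the clock loop, had 5.39, 5.76 and 5.39 in antimiR-122 mice, against 6.87, 7.12 and 6.31 in saline mice, a 2.38-fold fall (adjusted p = 0.00154) that held with any mouse left out, while a dimmer probe set differed by -0.12. With the beta-actin covariate Arntl differed by -0.87 and did not pass (adjusted p = 0.114). Per2, a repressor of the loop, had 6.41, 6.65 and 6.16 in antimiR-122 mice, against 5.60, 4.95 and 5.53 in saline mice, a rise at the edge of the test (adjusted p = 0.0493) that passed in 0 of the 6 fits that left out a mouse. Dbp, an output factor of the clock, had 11.08, 11.21 and 11.10 in antimiR-122 mice, against 10.15, 9.76 and 10.96 in saline mice and did not pass. Over the 18 arrays of all days the mean level was 7.82 for Dbp and 7.29 for Arntl. In both groups of day 9, every mouse was above that mean for Dbp and below it for Arntl. What this means for comparing days was not tested. Retinoid-related orphan receptors and their Rev-erb antagonists act on Arntl in mouse through a short element, whose core TAGGTCA was searched in the same way. It was found in 2.61% of the 32851 promoters and in 2 of 18 clock genes with a promoter (11.1%), Arntl being the one of them past the test. The window at chr7:113207529-113207558 (plus strand) shows it in capitals, 30 bases after the gene start.
Arntl: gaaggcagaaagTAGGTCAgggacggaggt

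Of the plasma protein genes few passed. Acute phase proteins had 1 of 28 members that fell (against 0.896% of all genes), Orm1 (orosomucoid 1). It had 12.65, 12.89 and 12.43 in antimiR-122 mice, against 13.14, 13.13 and 13.08 in saline mice (adjusted p = 0.018). Saa1, a serum amyloid A apolipoprotein, had 8.26, 10.25 and 8.65 in antimiR-122 mice, against 9.83, 10.64 and 9.97 in saline mice. Its relative Saa2 had 7.06, 8.94 and 7.18 in antimiR-122 mice, against 8.40, 9.19 and 8.63 in saline mice, and both had overlapping groups and no call (adjusted p = 0.136 and 0.221). Orm2 had 6.64, 8.09 and 6.95 in antimiR-122 mice, against 8.59, 8.30 and 7.82 in saline mice and Mt2, metallothionein, 10.03, 10.36 and 11.70 in antimiR-122 mice, against 11.42, 11.95 and 12.12 in saline mice, and neither passed. Without mouse 8, Saa1, Saa2 and Orm2 passed (adjusted p = 0.0064, 0.0231 and 0.0173), and 4 of the list fell in place of 1. Complement and coagulation had 1 of 31 past the test, C9, where 2.81% of all genes passed. Against the same share, iron handling had Hjv and Tmprss6, the protease that cleaves hemojuvelin, past the test among 18 genes. Tmprss6 fell, with 11.05, 10.81 and 10.94 in antimiR-122 mice, against 11.34, 11.18 and 11.31 in saline mice (adjusted p = 0.0321). Without mouse 9 the adjusted p of Orm1 was 0.0912, and without mouse 8 that of Tmprss6 was 0.118.

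Of 28 cytochromes P450 of families 1 to 3, 2 rose (against 1.91% of all genes), Cyp1a2 with 12.46, 12.80 and 12.59 in antimiR-122 mice, against 11.99, 12.09 and 11.97 in saline mice and Cyp2a12 at 0.32 ± 0.08. Of 34 conjugating enzymes 2 fell (against 0.896% of all genes), Nnmt and Ugt2b1, a glucuronosyltransferase with 12.12, 12.19 and 12.22 in antimiR-122 mice, against 12.76, 12.77 and 12.75 in saline mice (adjusted p = 0.00929). Without regard to the test 28 of the 34 were lower, where 9986 of all 18193 genes were, with a list median of -0.18. Sult5a1, a sulfotransferase, had 7.19, 7.76 and 7.05 in antimiR-122 mice, against 8.67, 7.98 and 8.78 in saline mice and did not pass. Cyp1a2 passed in 0 of the 6 fits that left out a mouse and Ugt2b1 in all 6. Growth hormone responsive genes had 1 of 14 past the test, Hsd3b5, where 2.81% of all genes passed.

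Of 59 oxidative phosphorylation subunits 1 fell (against 0.896% of all genes), Ndufb5 of complex I. It had 11.44, 11.50 and 11.35 in antimiR-122 mice, against 11.84, 11.80 and 11.73 in saline mice (adjusted p = 0.0165). Ndufb6, also of complex I, had 11.32, 11.45 and 11.25 in antimiR-122 mice, against 11.64, 11.65 and 11.63 in saline mice, and Atp5pb, of the ATP synthase, had 12.30, 12.28 and 12.25 in antimiR-122 mice, against 12.61, 12.60 and 12.49 in saline mice. Both had groups apart without passing. In all, 52 of the 59 were lower, where 9986 of all 18193 genes were. Of the 59, 34 had antimiR-122 mice wholly below saline mice, where 11.2% of all genes did, with a list median of -0.09. Of 35 cytosolic ribosomal proteins 0 passed, with a median of -0.07. In the unfolded protein response 0 of 28 passed, and Creld2 had 8.69, 9.54 and 8.44 in antimiR-122 mice, against 9.73, 9.02 and 10.47 in saline mice. Where 2.81% of all genes passed, cell cycle genes had 1 of 30 past the test, Ccnd1, and p53 targets 1 of 16, the fall of Ei24 (-0.38 ± 0.07). Oxidative stress and Nrf2 genes had 0 of 16, with Gclc, the catalytic subunit of glutathione synthesis, at 12.02, 12.17 and 12.41 in antimiR-122 mice, against 11.54, 11.96 and 11.51 in saline mice (adjusted p = 0.0729). At an unadjusted p below 0.05, limma gave 3 genes lower of the ribosomal list, 4 of the unfolded protein response, 3 of the urea cycle and 3 of cholesterol synthesis. It gave 3 higher and 2 lower of the Nrf2 list, where 8.62% and 8.16% of all genes passed that mark in each direction.

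Against 1.91% of all genes, 2 of 18 hepatocyte transcription factors rose, Nr1i3 (CAR), a xenobiotic receptor, with 10.38, 10.26 and 10.37 in antimiR-122 mice, against 9.88, 9.96 and 9.62 in saline mice (adjusted p = 0.0171), and Rxra, the partner of many nuclear receptors, with 9.90, 9.77 and 10.07 in antimiR-122 mice, against 9.35, 9.50 and 9.34 in saline mice (adjusted p = 0.0331). A dimmer probe set of Rxra differed by 0.06 without passing. Prox1, with 7.43, 7.52 and 7.88 in antimiR-122 mice, against 6.36, 7.14 and 6.04 in saline mice, narrowly missed (adjusted p = 0.0535). In the microRNA machinery 2 of 17 rose, against the same share, Xrn1, the exonuclease that degrades decapped messages, with 6.11, 5.86 and 5.99 in antimiR-122 mice, against 5.07, 5.75 and 4.76 in saline mice, and Drosha, the nuclease that cuts primary microRNAs, with 7.57, 7.56 and 7.55 in antimiR-122 mice, against 7.19, 7.11 and 7.17 in saline mice. The groups of both genes did not overlap, and the adjusted p-values were 0.023 and 0.0295. Actin and cytoskeleton genes had 3 of 30 that rose, again against 1.91%, Gsn, Actg1 and Tpm4, and 1 that fell (against 0.896%), Rai14. Actg1, gamma-actin, had 12.26, 12.20 and 12.24 in antimiR-122 mice, against 11.69, 11.02 and 11.74 in saline mice, and Tpm4, a tropomyosin, had 8.73, 8.78 and 8.58 in antimiR-122 mice, against 8.31, 7.98 and 8.10 in saline mice (adjusted p = 0.0194 and 0.0106). Tpm4 passed with any mouse left out, and the adjusted p of Nr1i3, Rxra, Xrn1, Drosha and Actg1 reached 0.0818, 0.145, 0.0962, 0.0877 and 0.0695.

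Markers of other liver cells were read for the cell makeup of the samples. Of 14 Kupffer cell and macrophage markers 0 passed, with a median of 0.15, and 12 of the 14 were higher, where 8207 of all 18193 genes were. At an unadjusted p below 0.05 limma gave 4 higher and 1 lower, where 8.62% and 8.16% of all genes passed that mark. Clec4f had 10.17, 9.99 and 10.27 in antimiR-122 mice, against 9.65, 9.67 and 9.79 in saline mice, C1qa had 9.53, 9.59 and 9.85 in antimiR-122 mice, against 8.21, 9.25 and 8.71 in saline mice, and Csf1r had 10.21, 10.52 and 10.42 in antimiR-122 mice, against 10.63, 10.65 and 11.09 in saline mice, with groups apart in all 3 but in opposite directions. The mean level over the list was 8.46, 8.52 and 8.52 in antimiR-122 mice, against 8.09, 8.32 and 8.45 in saline mice. Of 15 stellate cell markers 3 rose (against 1.91% of all genes), Reln with 10.28, 10.36 and 10.22 in antimiR-122 mice, against 9.69, 9.69 and 9.60 in saline mice, Dcn (decorin) with 10.28, 10.27 and 10.44 in antimiR-122 mice, against 9.64, 10.15 and 9.51 in saline mice and the transcription factor Hand2 with 6.63, 6.77 and 6.70 in antimiR-122 mice, against 6.06, 6.38 and 6.06 in saline mice. Acta2, smooth muscle actin, had 7.06, 7.25 and 8.20 in antimiR-122 mice, against 5.79, 7.03 and 6.59 in saline mice, and Col3a1, a fibrillar collagen, had 9.09, 9.79 and 9.74 in antimiR-122 mice, against 8.99, 8.67 and 9.01 in saline mice, and neither passed. The list's mean level was 7.73, 7.81 and 7.92 in antimiR-122 mice, against 7.42, 7.62 and 7.47 in saline mice, and without 1 mouse 0 to 2 of the 15 rose. Of 11 sinusoidal endothelial markers 1 rose (against the same 1.91%), Clec4g (0.48 ± 0.12). Lymphocyte (12 measured), neutrophil (6), cholangiocyte (5) and erythroid (4) markers had 0 past the test, with mean levels of at most 5.23, 5.08, 4.69 and 4.69 in any mouse. Their part in the differences above was not tested.

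Setting the day 9 differences beside those of the other days, 821 genes (4.51%) passed at day 3 and 70 (0.385%) at day 23. Of the 511 genes of day 9, 168 also passed at day 3 (32.9% of the day 9 genes and 20.5% of the day 3 genes), and all 168 had the same direction. The beta-actin ratio differed between the groups at day 3 as well, and its part in these shared genes was not tested. With day 23, 35 were shared (6.85% of the day 9 genes and 50% of the day 23 genes), all in the same direction, and 21 passed on all 3 days. Passing at day 9 alone, which was the case for 329 genes, is no test of a difference between days. That test, the change in the treated minus saline difference between days 3 and 9, passed for 26 genes (0.143%), 9 higher (0.0495%) and 17 lower (0.0934%) at day 9, of which 11 were among the 511. The days share no arrays.

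Of the 17 with a lower difference at day 9, the 6 largest changes were those of acute phase genes (Saa1, Saa2, Saa3 and Orm2) and interferon-induced genes (Irf7 and Oasl2). Saa2 differed by -1.02 at day 9 and by 4.83 at day 3, a change of -5.85 ± 0.59 (adjusted p = 0.000173). Saa3 differed by -0.02 at day 9 and 4.31 at day 3, Saa1 by -1.09 and 2.92, and Orm2 by -1.01 and 1.91, in the same order of days. Irf7 differed by 0.87 at day 9 and 2.70 at day 3 (adjusted p = 0.0221), Oasl2 by 1.30 and 2.94, and Lgals3bp by 1.20 and 2.03, so these 3 were still higher in antimiR-122 mice at day 9 but by less. In the interferon list 26 of 31 rose at day 3 (against 2.63% of all genes), with a median of 0.96, and 0 at day 23, with a median of 0.28. Ranbp3l, also among the 17, stood at -1.32 ± 0.12 at day 9 against -0.06 ± 0.12 at day 3 and -0.11 ± 0.12 at day 23. Both changes passed (adjusted p = 0.00735 and 0.0495), and it was the only gene of 18193 (0.0055%) to pass between days 9 and 23, where 1581 had an unadjusted p below 0.05. The change against day 23 failed in 9 of 15 alternatives, with an adjusted p of up to 0.486 under the replicate block, and that against day 3 in 2.

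Of the 9 with a higher difference at day 9, Rai14 was below saline on both days but less so at day 9, at -1.42 against -3.90 at day 3 (change 2.49 ± 0.23, adjusted p = 9.78e-05). Rbfox2 differed by 1.65 at day 9 and -0.72 at day 3 (adjusted p = 0.0261). Abcg5 differed by 0.65 at day 9 and -0.34 at day 3 (adjusted p = 0.0316), and it had not passed at day 3. Nufip2, an RNA-binding protein, had 8.31, 8.34 and 8.25 in antimiR-122 mice, against 7.28, 7.78 and 7.12 in saline mice at day 9, and differed by 0.90 at that day and -0.41 at day 3. Its other probe sets differed by 0.16 and -0.12 at day 9, and with the mean of probe sets its change was 0.47 and did not pass (adjusted p = 0.243). Coq10b, of coenzyme Q function, had 8.29, 8.15 and 7.88 in antimiR-122 mice, against 7.40, 7.06 and 7.55 in saline mice at day 9, with 0.77 and -0.38 in the same order. Trib1, a pseudokinase that controls lipid synthesis in liver, differed by 0.32 at day 9 without passing and by -0.64 at day 3 (adjusted p of the change = 0.0261). Leaving out saline mouse 2 raised the count of such genes to 64, and leaving out another mouse gave 9 to 19, with 9 without saline mouse 1 or 3, 11 without antimiR-122 mouse 8 and 13 without mouse 10.

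On the microRNA-122 target list 12 of 30 rose at day 3, 10 at day 9 and 2 at day 23 (against 2.63%, 1.91% and 0.187% of all genes), with medians of 0.32, 0.27 and 0.11. Aldoa differed by 0.82, 0.77 and 0.34 at days 3, 9 and 23, and Bckdk by 1.15, 1.06 and 0.54. Slc35a4 differed by 0.79, 0.95 and 0.66, Ccng1 by 0.97, 0.52 and 0.50, and both passed on all 3 days, as did Arhgef7 and Ang. No target on the list passed the test of a change between days 3 and 9, which does not show that they stayed alike. For the genes that follow, the change between days did not pass either. Gsn was at 0.72, 1.65 and 1.20 at days 3, 9 and 23, Apob at -0.05, 0.98 and 0.65, Rdh9 at 0.90, 1.36 and 1.07, and Meg3 at 0.33, 1.24 and 1.45. Ppm1m fell at days 9 and 23, by 1.09 and 1.11 on the log2 scale, and Arntl was at -0.01, -1.25 and -0.55. In both groups the levels of Arntl at day 9 were below its mean over all days, as given above.

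**Figure D5:**
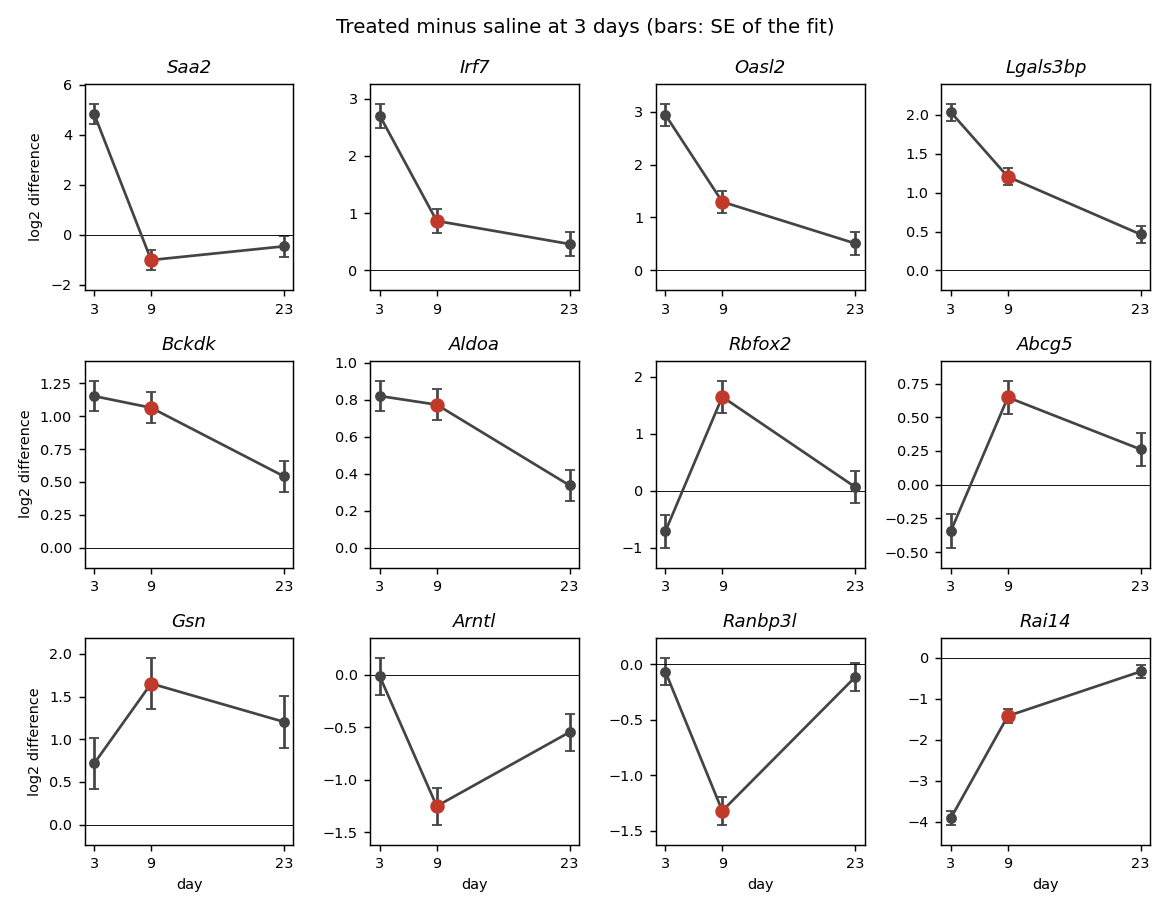
Log2 difference between 3 antimiR-122 and 3 saline livers (y axis) at days 3, 9 and 23 (x axis) for 12 genes, with the SE of the fit as bars and day 9 in red. The difference of Ranbp3l was lower at day 9 than at both other days (for day 23, past the test in 6 of 15 alternatives), those of Rbfox2 and Abcg5 were higher at day 9 than at day 3, and those of Saa2, Irf7, Oasl2 and Lgals3bp were lower at day 9 than at day 3.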

How the data were processed

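Total RNA of mouse liver was labelled by the one-cycle kit and hybridised to 1-colour Affymetrix arrays, per the labels' protocols. The authors deposited log2 expression values, made with RMA per the submitters' processing notes, which sets background, normalization between arrays and the summary of probes, and which arrays were normalized together is not given in the sources used here. Gene names came from the platform annotation: of 45101 probe sets, 34945 had 1 symbol, 932 several, 9160 none and 64 were controls. Of the named ones 34741 matched a RefSeq gene (GRCm38.p6) by Entrez number. Where a gene had several (9010 genes), the probe set with the highest mean level was used. With 3 mice per group, the number of arrays limits the precision.

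Differences were fitted with limma 3.58.1 in R 4.3.3 on 18 arrays in 6 groups (antimiR-122 and saline at days 3, 9 and 23), which share an estimate of spread with 12 residual degrees of freedom. Errors of single genes are the fit's SE, 3 mice per group, and Benjamini-Hochberg adjustment ran over all 18193 genes. The method was tested on simulated data. The text names the 15 largest changes each way at day 9 among genes past the test whose groups did not overlap. For these, the lack of overlap was part of the rule and is no support. It also names the 6 largest changes in effect between days, list members past the test or among the 4 largest of a list, and 12 genes always taken. Members and the 38 gene lists were chosen with earlier results of these data known. Lists are described by counts and medians, with no test. Saline and antimiR-122 arrays of the same replicate number did not deviate together at day 9 (correlations of 0.06, 0.08 and 0.01 over genes), so numbers were taken as no pairing. Alternatives were other scalings, level filters, probe set rules and priors, day 9 arrays alone, a replicate block, a fold threshold, the beta-actin ratio as covariate, and each mouse left out. Figures were drawn with matplotlib 3.10.9.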

Additional observations from a re-analysis of the deposited data

Results flagged for a closer look

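The following differences at day 9 changed against another day by a test of the change itself, among the largest of each direction. Values are changes in the log2 difference (antimiR-122 minus saline), day 9 minus day 3, with adjusted p from limma. Acute phase genes had the largest ones: Saa2 changed by -5.85 (adjusted p = 0.000173), Saa3 by -4.33 (0.0132), Saa1 by -4.02 (0.00481) and Orm2 by -2.92 (0.0178). At day 9 none of these 4 differed past the test, while at day 3 all 4 had risen. Of interferon-induced genes, Irf7 changed by -1.84 (0.0221), Oasl2 by -1.64 (0.0364) and Lgals3bp by -0.83 (0.0487).

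Rai14 changed by 2.49 (adjusted p = 9.78e-05), Rbfox2 by 2.37 (0.0261), Nufip2 by 1.32 (0.0469), Coq10b by 1.15 (0.0487), Abcg5 by 0.99 (0.0316) and Trib1 by 0.97 (0.0261). Ranbp3l changed by -1.26 against day 3 (0.00735) and by -1.21 against day 23 (0.0495). Under the 16 alternatives tried, Rai14, Saa1, Saa2 and Saa3 passed in each. The other genes failed in 2 to 10 of them, and Ranbp3l against day 23 in 9 of 15, with an adjusted p of up to 0.486 under the replicate block.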

How the results depend on the processing

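The count of 511 genes at day 9 was 132 (98 higher, 34 lower) on the 6 arrays of day 9 alone, where fewer arrays give the spread, 216 (161 and 55) with the replicate block, 191 (149 and 42) with a change of at least 1.5-fold added, and 35 (31 and 4) with the beta-actin ratio as covariate. The lower genes were 256 above the 75th percentile of level. Leaving out 1 mouse gave 176 to 390 genes (132 to 264 higher, 44 to 126 lower). Other scalings, filters, probe set rules and priors gave 411 to 736. The change between days 9 and 3 passed for 6 genes with the replicate block and for 9 to 64 with 1 mouse left out, against 26. That between days 9 and 23 passed for 1 gene, and for 0 with arrays centred, above the 75th percentile, with the mean of probe sets, with the block and with the beta-actin covariate, and for 0 to 4 with 1 mouse left out. The cause was not tested for the block and the covariate.

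Of the 76 rule-named genes past the test, 27 passed with any 1 mouse left out, 40 with the block, 36 on day 9 arrays alone and 12 with the beta-actin covariate. Signs turned in genes that had not passed. With the covariate Cd320 was at -0.00553, P4ha1 at -0.12, Dbp at -0.43, Saa3 at 0.38 and Gys1 at 0.0191. Gys1 was at 0.00567 with arrays centred and at 0.0187 with the mean of probe sets, where Slc7a1 was at -0.0182. With 1 mouse left out, Gys1 ranged over -0.14 to 0.0903, Saa3 over -0.21 to 0.18, Hmgcs1 over -0.55 to 0.34 and Sqle over -1.08 to 0.38. The cause was not tested. Arrays of 3 mice per group limit the size of change that can pass, and RMA levels near the bottom of the scale understate folds. Another probe set of the same gene above the median level existed for 32 of the 76 genes; 48 of 55 such probe sets had the same sign and 22 passed.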
